A study of Mus musculus with 3 samples.

Results

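The strong balanced sites were 1120 places in the mouse liver genome. At each, a tall REV-ERB alpha peak overlapped a tall peak of its relative REV-ERB beta. The sites were chosen by the measured tag counts. Peaks of the 2 lists had to overlap by 1 bp or more. The alpha peak had to hold at least 70 tags and the beta peak more than 110. The ratio of unique tag positions (alpha over beta) had to lie less than 2-fold from its median over all 13314 overlapping pairs. Balanced refers to this ratio and not to equal tag counts. A tag is 1 aligned sequencing read, and a unique position counts once however many tags share it. The sites made up 8.41% of the pairs, 4.58% of 24461 alpha peaks and 5.07% of 22097 beta peaks, and held 14.2% of the alpha tags and 17.1% of the beta tags in all peaks. The alpha peaks include 1415 on chromosome 8, where the beta list as used here had 0 peaks and no site could be a pair. The alpha shares are therefore not directly comparable with the beta shares. Because the counts chose the sites, their heights and ratios are a description and carry no test.

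The libraries came from chromatin immunoprecipitation followed by sequencing (ChIP-seq) of livers of male C57BL/6 mice aged 20 weeks. The animals had spent 3 days on a cycle of 12 hours of light and 12 of darkness and were taken at zeitgeber time 8, that is 8 hours after lights on. There was 1 library with an antibody against REV-ERB alpha, 1 with an antibody against REV-ERB beta and 1 input library without an antibody; the labels do not say how many animals each one held. No value therefore has a replicate error, and no test across animals was possible. Intervals are 95% intervals over tags or sites, which cover counting error only and treat neighbouring sites and tags at 1 position as independent, which they need not be.

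REV-ERB alpha (gene Nr1d1) and REV-ERB beta (Nr1d2) are heme-binding nuclear receptors that lack the activation helix of their relatives and repress transcription through the NCoR corepressor and histone deacetylase HDAC3. They recognise a single nuclear receptor core motif with an A/T-rich flank, the response element shared with the activating ROR receptors, or a direct repeat of the core. In liver they link the circadian clock, through the repression of Arntl (Bmal1), with lipid and bile acid metabolism. The letters of these elements were not searched for and the sites were not assigned to genes, since mm9 sequence and gene annotation were not used here; positions are in mm9. The label "sites of both receptors" rests on overlapping peaks. Whether either antibody also recognised the other receptor was not tested.

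About 1 in 2 of the tall peaks of each list, meaning those that met the tag limit, became a strong balanced site, called a member here. In the alpha list 10.2% of peaks passed the tag limit, and in the beta list 10.1%. Of the 2355 alpha peaks at the limit on the 19 chromosomes with peaks in both lists, 2107 overlapped a beta peak, 1170 of those had a beta partner at its own limit, and 1120 of these were balanced (47.6% of the 2355). Of the 2226 beta peaks at the limit, 2127 overlapped an alpha peak, and the same 1120 sites were 50.3% of the 2226. A partner existed but was lower at 937 of the tall alpha peaks, where it held a median of 75 beta tags, and at 957 of the tall beta peaks, where it held a median of 50 alpha tags. The lack of any overlapping peak was rarer, at 248 alpha and 99 beta peaks.

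Once both peaks were tall, few pairs failed the balance. Of the 1170 pairs past both limits 95.7% lay within 2-fold of the median ratio, against 85.8% of all 13314 pairs; the rule used this ratio, so nothing is read from the difference. The 50 tall pairs that failed leaned to beta at 46 sites and to alpha at 4. The 4 were chr10:76579344-76579496 (301 alpha and 135 beta tags), chr7:20270797-20270949 (269 and 132), chr16:30796303-30796455 (229 and 119) and chr1:121190489-121190641 (227 and 124); they are named because they were few, after their values were seen. All pairs were ordered by height, the geometric mean of the alpha and beta tags, and cut into 10 equal groups. The balanced share was 97.3% in the lowest group, 80.7% in the fourth and 88.9% in the highest. Shared peaks held at least 12 tags in each list, so pairs of the lowest group, with heights up to 22.8, had little room to be uneven. Nothing is read from these shares either.

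**Figure D1:**
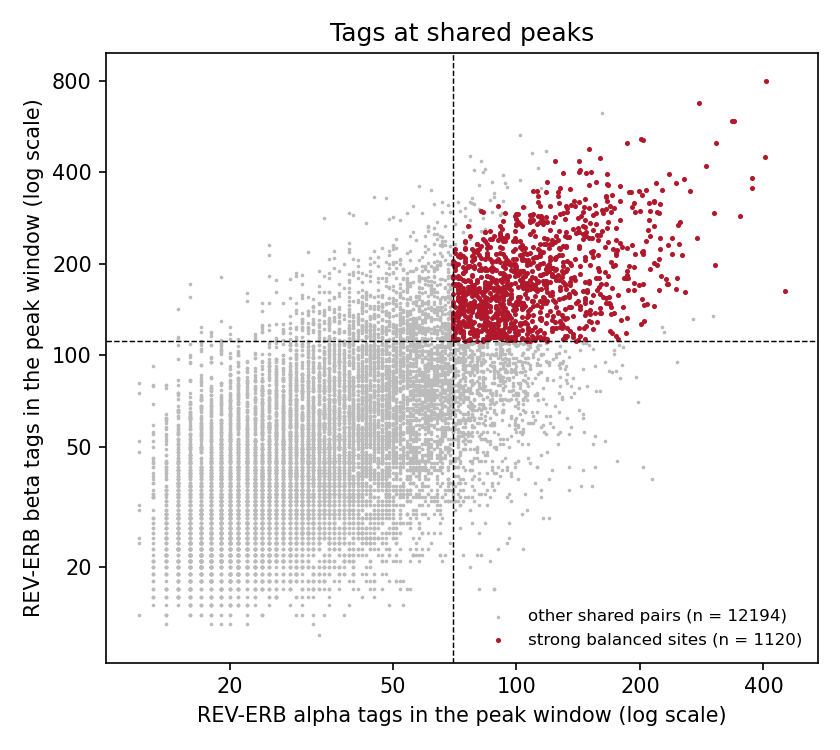
Alpha tags (horizontal, log scale) against beta tags (vertical, log scale) in the peak windows of the 13314 shared pairs; dashed lines mark the 2 tag limits. The 1120 strong balanced sites fill the upper right corner, where 50 other pairs are grey.

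At the edges of the rule the sites inside and outside were nearly alike. The alpha limit had 25 members with 70 tags, and 24 balanced pairs with a tall beta peak missed it with 69. The highest members at the limit were chr5:8928633-8928785 (70 alpha and 204 beta tags), chr11:110241369-110241521 (70 and 200) and chr2:32383202-32383354 (70 and 182). The highest pairs just outside were chr2:10047940-10048092 (69 and 229), chr3:120874967-120875119 (69 and 214) and chr15:10155500-10155652 (69 and 200). At the beta limit 7 members had the lowest count allowed, and 20 balanced pairs with a tall alpha peak had 110 beta tags, which is 1 tag fewer. Highest among those 7 were chr12:110093367-110093519 (140 alpha tags), chr7:150228264-150228416 (119) and chr12:111210684-111210836 (108). Highest of those with 110 beta tags were chr6:55274378-55274530 (148 alpha tags), chr17:84235514-84235666 (145) and chr7:150376016-150376168 (145). By ratio, the 3 members nearest the beta edge were chr6:113606943-113607095, chr6:53997502-53997654 and chr12:82289488-82289640, with log2 ratios of -0.99, -0.98 and -0.97 from the median. The 3 tall pairs just past it, chr3:54950443-54950595, chr3:82829918-82830070 and chr1:185924438-185924590, stood at -1.004, -1.01 and -1.02. A change of a few tags would move such sites across the rule, so membership at the edges is arbitrary.

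Within the set, alpha windows held 70 to 452 tags with a median of 102 (quartiles 84 and 131), and beta windows held up to 801 with a median of 168 (quartiles 137 and 214). The other 12194 shared pairs had medians of 33 alpha and 48 beta tags. The peak score assigned by the authors' peak caller ran from 45 to 139 for alpha and from 52 to 191 for beta. Over tags plus 1 divided by input tags plus 1, the median member stood 24.9-fold over input for alpha and 32.1-fold for beta, and the lowest members at 4.75-fold and 6.43-fold. In the other shared pairs the medians were 10.3-fold and 11.6-fold. These folds are ratios of raw counts that are not scaled for the depth of the libraries, so alpha and beta folds are not compared.

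The 10 tallest members were tall in both libraries, but not in the same order. The tallest, chr9:24316414-24316566, held 405 alpha tags at 207 positions, 801 beta tags at 279 positions and 4 input tags in either window, and ranked 4 among alpha peaks and 1 among beta peaks. Of its tags within 10 kb, 53.4% of the alpha and 63.4% of the beta tags fell in the window. It was the only one of the 10 with no other peak of either list within 10 kb. Site 6, chr13:52861730-52861882, held 306 alpha and 500 beta tags over 3 and 4 input tags, and had 1 other beta peak within 10 kb.

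Sites 2 and 3 lay on chromosome 1 and stood out by their input. At chr1:90110291-90110443 the windows held 339 alpha and 588 beta tags over 35 and 45 input tags. At chr1:90184770-90184922 they held 336 and 592 tags over 25 and 39 input tags. These were the highest input counts of all members, and the sites stood 9.44-fold and 13.0-fold over input for alpha, below the median member. Whether the high input bears on their tag counts was not tested.

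In raw tags, which are not scaled for the depth of the libraries, alpha and beta were closest to even at sites 7 and 8. At chr19:36709419-36709571 there were 375 alpha and 384 beta tags, and at chr3:51037526-51037678 there were 376 and 356, the only one of the 10 with more alpha than beta tags. Site 5, chr11:109356267-109356419, held 404 and 450 tags. Their unique positions leaned a little to alpha, by log2 0.25 (exact interval -0.05 to 0.55), 0.27 (-0.04 to 0.58) and 0.16 (-0.13 to 0.44) from the median of all pairs, and all 3 intervals include it. By unique positions relative to that median, sites 3 and 9 were closest to even, both at a log2 ratio of -0.10.

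Sites 4 and 10 were the most uneven of the 10. At chr7:54001320-54001472 there were 279 alpha and 675 beta tags, a log2 ratio of unique positions of -0.52 (-0.80 to -0.23). At chr14:69891829-69891981 there were 203 and 512 tags, a log2 ratio of -0.59 (-0.91 to -0.27). These intervals, and those of sites 1 and 2, leave out the median of all pairs. Site 9, chr7:88833351-88833503, held 290 alpha and 419 beta tags at a log2 ratio of -0.10 (-0.41 to 0.20). Another member lay close by: at chr7:88832645-88832797 the counts were 81 and 146.

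**Figure D2:**
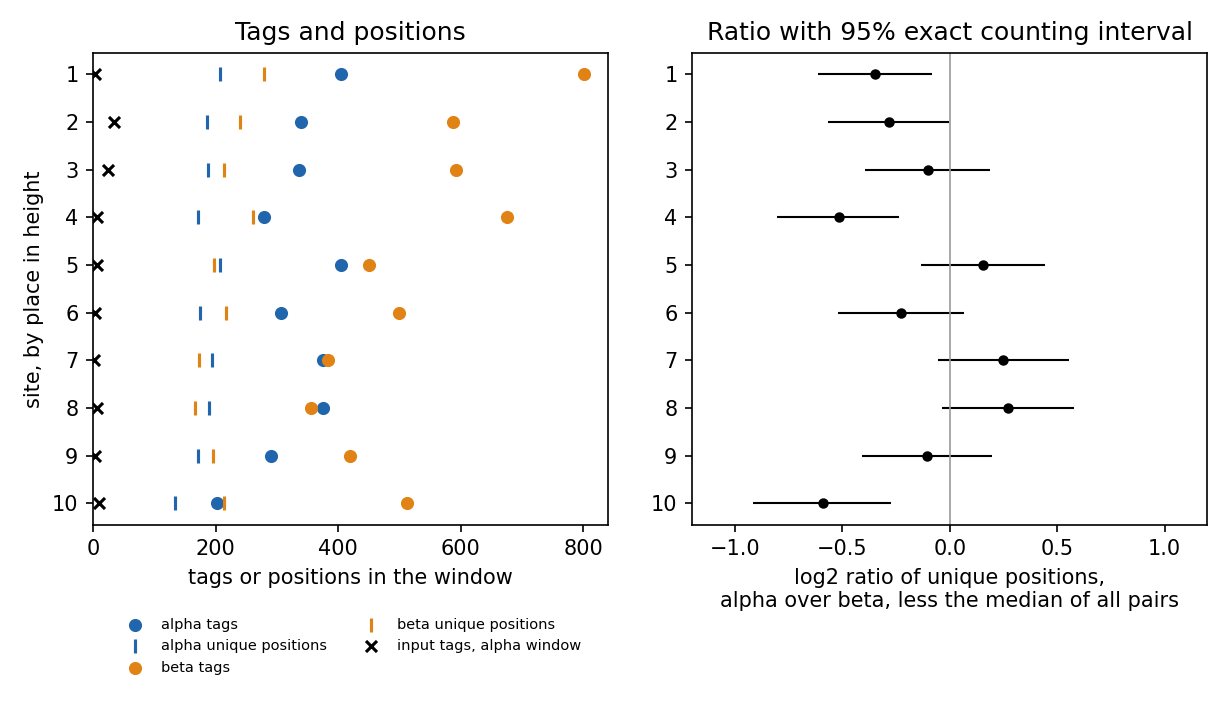
Left, tags, unique positions and input tags (horizontal, linear from 0) at the 10 strong balanced sites with the highest geometric mean of tags, numbered by height; right, their log2 ratio of unique positions less the median of all shared pairs, with 95% exact counting intervals. Beta tags spread from 356 to 801 and alpha tags from 203 to 405, while the ratios stay between -0.59 and 0.27.

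As a set the members sat slightly to the beta side of the median of all shared pairs. Their median centred log2 ratio was -0.20 (quartiles -0.45 and 0.10), with 757 members below 0 and 363 above. In raw numbers the median member had 0.824 alpha positions per beta position, against 0.944 over all pairs, and 0.599 alpha tags per beta tag, against 0.688. The exact interval of the ratio left out the median of all pairs at 364 members (32.5%), 287 on the beta side and 77 on the alpha side, against 28.2% of all shared pairs. The tag limits and the ratio limit both fix these shares in part, so they are given as a description.

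Most members were also balanced when all tags replaced unique positions. The tag limits and the ratio limit fix this in part, so the shares are a description. Of the 1120, 1073 (95.8%) were also within 2-fold by tags, against 81.9% of all shared pairs and 93.7% of the balanced pairs that missed a tag limit. Of the 47 that were not, 32 leaned to beta and 15 to alpha. The clearest case was chr11:7052552-7052704, the member with the most alpha tags. It held 452 alpha tags at 193 positions but 163 beta tags at 103 positions, so its centred log2 ratio was 0.99 by positions, just inside the limit, and 2.01 by tags. The next members toward alpha, chr15:7109927-7110079 and chr18:60859343-60859495, had log2 ratios of 0.96 and 0.91 by positions and 0.84 and 1.19 by tags. At the 3 members furthest toward beta, named above with the edge of the rule, the ratio by tags was -1.24, -1.27 and -1.27.

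Repeated tags were more common at these tall sites. The median member had 1.32 tags per unique position in the alpha library and 1.80 in the beta library, against 1.16 and 1.61 in the other shared pairs. The medians were 1.30 and 1.63 where only the alpha peak was tall, and 1.17 and 1.74 where only the beta peak was tall. They were 1.25 and 2.00 in the 50 tall pairs that failed the balance. The rule used both counts, so these values are a description. From the lowest to the highest of 4 equal groups of members by height the medians went from 1.26 to 1.43 for alpha and from 1.73 to 1.94 for beta. A window has 1 start position per base and strand, 306 in the alpha window and 420 in the beta window. The median member had 25.5% and 22.4% of them occupied, and the fullest had 67.6% and 66.4%. The number of unique positions has this upper bound and the number of tags has none. Whether repeated tags came from separate molecules was not tested.

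The centres of both peaks lay close together at the strong balanced sites. The rule limits this distance only through the overlap, and the widest of all shared pairs had centres 181 bp apart. The median distance was 21 bp (95% interval 20 to 23 bp; quartiles 10 and 37 bp), against 28 bp in the other shared pairs (quartiles 13 and 52 bp). Centres were within 50 bp at 973 members (86.9%, Wilson interval 84.8% to 88.7%), against 74.1% of the other pairs (73.4% to 74.9%). They were more than 100 bp apart at 16 members (1.43%), against 6.08% of the others. The alpha window lay wholly inside the beta window at 721 members (64.4%), against 51.9%.

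The distance was also short where only the alpha peak was tall. Pairs with a tall alpha peak and a beta partner below its limit had the same median of 21 bp (937 pairs), and 85.2% of them were within 50 bp. Pairs with a tall beta peak and a lower alpha partner had a median of 26 bp (957 pairs), and 76.1% were within 50 bp. The 50 pairs with both peaks tall that failed the balance had a wider median, 37 bp (95% interval 24 to 54 bp). Over the 10 groups of all pairs by height the median went from 35 bp in the lowest to 22 bp in the ninth and 23 bp in the highest, where the pairs that were not members had a median of 27 bp. Within the members there was no such trend, with medians of 20, 20, 23 and 21.5 bp in the 4 groups of members from the lowest to the highest. Taller peaks have more tags behind each centre; the part of this in the distances was not tested. The beta centre had the higher coordinate at 49.6% of members. The widest members were chr6:116585453-116585605 (177 bp), chr13:56454855-56455007 (174 bp) and chr1:155526362-155526514 (166 bp).

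**Figure D3:**
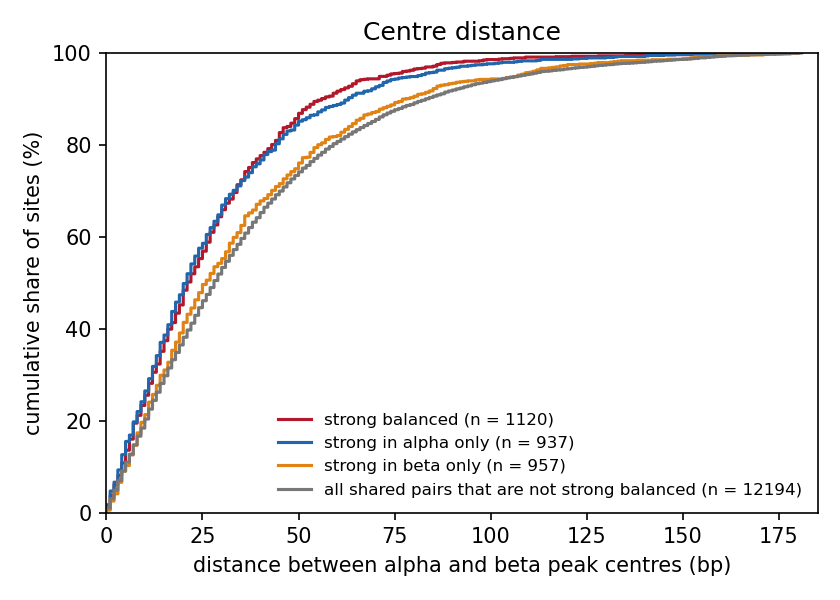
Cumulative share of sites (vertical, percent) by distance between the alpha and beta centres (horizontal, bp) for strong balanced sites, for pairs at only 1 of the 2 tag limits, and for all shared pairs that are not strong balanced, which include the former. The curve of the strong balanced sites reaches 86.9% at 50 bp and runs beside that of the tall alpha peaks; the other curves lie lower.

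Input, which the rule did not use, was somewhat higher at the members. The alpha windows held a median of 3 input tags (quartiles 2 and 6) and the beta windows 4.50 (3 and 7), against 2 and 3 in the other shared pairs. In 117 members (10.4%, 8.79% to 12.4%) at least 1 window held 10 or more input tags, against 2.76% of the other pairs (2.48% to 3.06%). The share was 10.99% in pairs with only the alpha peak tall and 4.70% in pairs with only the beta peak tall. Mean input in the alpha window went from 1.61 to 3.90 tags over the 10 groups of all pairs by height. No shared pair stood below 4-fold over input for alpha or 3.5-fold for beta, by tags plus 1 over input tags plus 1. A lower pair could therefore hold fewer input tags, which fixes these comparisons in part. After the chromosome 1 sites above, the members with the most input were chr16:29973489-29973641 (169 alpha and 147 beta tags over 21 and 22 input tags), chr19:34570964-34571116 (186 and 133 tags over 16 and 17) and chr1:90164786-90164938 (110 and 209 tags over 13 and 19). At the other end, 34 members (3.04%) had 0 input tags in both windows, against 5.35% of the other shared pairs. That share was 2.56% in pairs with only the alpha peak tall and 4.49% in pairs with only the beta peak tall. The part of input in the tag counts was not tested.

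The surroundings of the members carried more tags of both antibodies than those of the other shared pairs. Outside the peak window, but within the 10 kb around it, the median member had 283 alpha tags (quartiles 198 and 393) and 304 beta tags (203 and 458). The other shared pairs had medians of 171 and 160. Other tall pairs lay closer to the members, with medians of 242 and 198 where only the alpha peak was tall, 219 and 274 where only the beta peak was tall, and 270 and 398 in the 50 tall pairs that failed the balance. Part of these tags can belong to neighbouring peaks. In every peak of both lists the tag density in the window was at least 4 times that around it. A lower pair could therefore hold fewer tags outside the window. This limit fixes the comparisons with lower pairs in part, including those without a neighbour. Among the 173 members with no other peak of either list within 10 kb the medians were 196 and 192, against 119 and 102 for the 3395 other pairs with no neighbour. The median member thus had 27.9% of its local alpha tags and 36.8% of its local beta tags in the window, which for the members without a neighbour was 35.6% and 49.1%. Across the 1120 members the alpha and beta tags outside the window had a Pearson r of 0.80 and a Spearman rho of 0.83, against 0.78 and 0.80 in the other shared pairs. The ratio outside and the centred ratio inside had a Pearson r of 0.34 and a Spearman rho of 0.32, against 0.39 and 0.38 in the other pairs. These are descriptions over sites of the same pair of libraries.

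Members differed widely in how far they rose over their surroundings. Tag density in the window over that around it had a median of 24.96 for alpha and 27.2 for beta. By the geometric mean over both libraries it was highest at chr17:70304387-70304539, which held 140 alpha and 252 beta tags in the windows but 57 and 63 outside, a density 158 and 186 times that around it. Next were chr7:27724390-27724542 (82 and 133 tags, 94.2 and 207 times) and chr10:96463601-96463753 (110 and 292 tags, 106 and 155 times). It was lowest at chr7:88832645-88832797, beside the ninth tallest site, with 916 alpha and 1342 beta tags outside and densities of 5.69 and 5.07 times. At chr2:32274964-32275116 there were 1653 and 1334 tags outside (4.01 and 7.30 times), and at chr9:46033454-46033606 1032 and 890 (4.68 and 7.96 times). The tags outside the window include those of neighbouring peaks: these 3 sites had 2, 2 and 6 other alpha peaks within 10 kb, and the 3 highest had 1, 0 and 0.

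Strong balanced sites often lay near one another. Another member lay within 50 kb of 440 members (39.3%, 36.5% to 42.2%), against 20.1% of the other shared pairs (19.4% to 20.8%). Within 10 kb the shares were 20.1% (17.8% to 22.5%) and 7.27% (6.82% to 7.74%). Pairs with only the beta peak tall came near the members, with a member within 50 kb at 34.0% (31.0% to 37.0%) and within 10 kb at 18.9%, and the intervals of the 2 sets overlap. Pairs with only the alpha peak tall were lower, at 25.2% and 10.99%. The 50 tall pairs that failed the balance had a mean of 0.74 members within 50 kb. The mean was 0.625 other members for a member and 0.270 members for the other shared pairs, so nearby members were not particular to balanced sites. Members lay in denser surroundings than the other shared pairs: 77.9% had another alpha peak within 10 kb and 77.0% another beta peak, against 62.8% and 63.6%. Other tall pairs did so too. Their shares were 78.0% and 77.6% with only the beta peak tall, and 71.8% and 70.8% with only the alpha peak tall. The part of this density in the shares with a nearby member was not tested. Members with no other peak of either list within 10 kb were fewer, at 15.4% (13.4% to 17.7%) against 27.8% (27.1% to 28.6%), and near the 16.1% of pairs with only the beta peak tall.

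**Figure D4:**
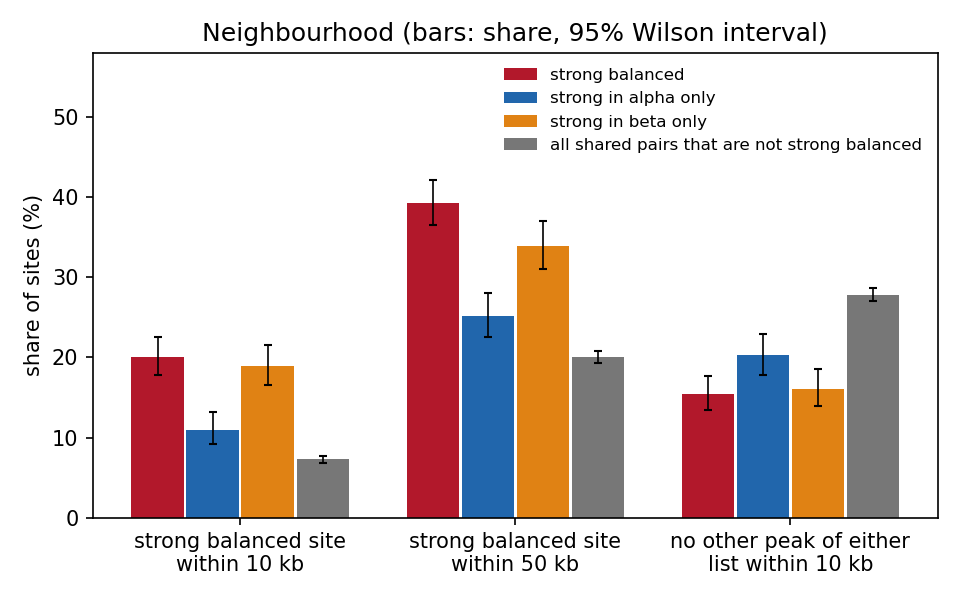
Share of sites (vertical, percent, linear from 0) with a strong balanced site within 10 kb or within 50 kb, and with no other peak of either list within 10 kb; error bars are 95% Wilson intervals, and all shared pairs that are not strong balanced include those at 1 tag limit. Strong balanced sites have the highest bars for 50 kb, at 39.3%, and the lowest for isolation, at 15.4%.

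Grouped by windows of at most 50 kb, taken in order of the number of members they held, the sites formed 3 groups of 5, 13 of 4, 29 of 3 and 139 of 2, and 688 were left ungrouped. The ungrouped include some members with another within 50 kb that had already been placed in another group. Of the groups of 5, the one with the most tags, chr9:46023814-46065059, held 509 alpha and 1135 beta tags in its members, and all 5 were to the beta side of the median, with log2 ratios from -0.79 to -0.20. Its first site, chr9:46023814-46023966, carried 152 alpha and 400 beta tags. From its first to its last member lay 8 alpha and 6 beta peaks, the members' own included. The group at chr2:167648994-167678331 was mixed, with 663 alpha and 841 beta tags and ratios from -0.25 to 0.54. Its member at chr2:167668090-167668242 held 141 alpha and 112 beta tags, and its tallest, chr2:167670143-167670295, held 195 and 215. The third group of 5, at chr7:105500186-105541270, had even alpha heights of 82 to 118 tags and beta heights of 151 to 279.

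The groups of 4 with the most tags were on chromosomes 1 and 13. At chr1:90164786-90184922, which includes the third tallest member, 4 sites held 859 alpha and 1353 beta tags, with alpha heights of 110 to 336 and input of 11 to 25 tags in the alpha windows. At chr13:94407856-94423690, 4 sites within 15.7 kb held 525 alpha and 1235 beta tags with ratios from -0.91 to -0.16, and no other peak of either list lay between them. Within that group chr13:94418692-94418844 held 142 alpha and 436 beta tags and chr13:94423538-94423690 held 97 and 156.

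All 1120 members lay on the 18 autosomes with peaks in both lists. They made up 8.49% (8.02% to 8.98%) of the 13196 shared pairs there. The share was lowest on chromosome 3, with 44 of 758 pairs (5.80%, 4.35% to 7.70%), and highest on chromosome 17, with 61 of 578 (10.6%, 8.30% to 13.3%); among the autosomes the interval of chromosome 3 alone leaves out the value for all of them. On the X chromosome, which males carry once, 0 of 118 shared pairs were members, a count that allows a share of up to 2.54% if the limit is set at 3 pairs, and up to 3.15% by the Wilson interval. Only 3 X pairs reached the alpha limit and 5 the beta limit, and none reached both. The highest X pairs held 134 alpha and 199 beta tags. The median X pair held 23 alpha and 43 beta tags, against 36 and 52 on the autosomes, and its mean input was 1.36 and 2 tags against 2.83 and 3.82. The limits were the same for all chromosomes, and the part of the single X copy in these counts was not tested.

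**Figure D5:**
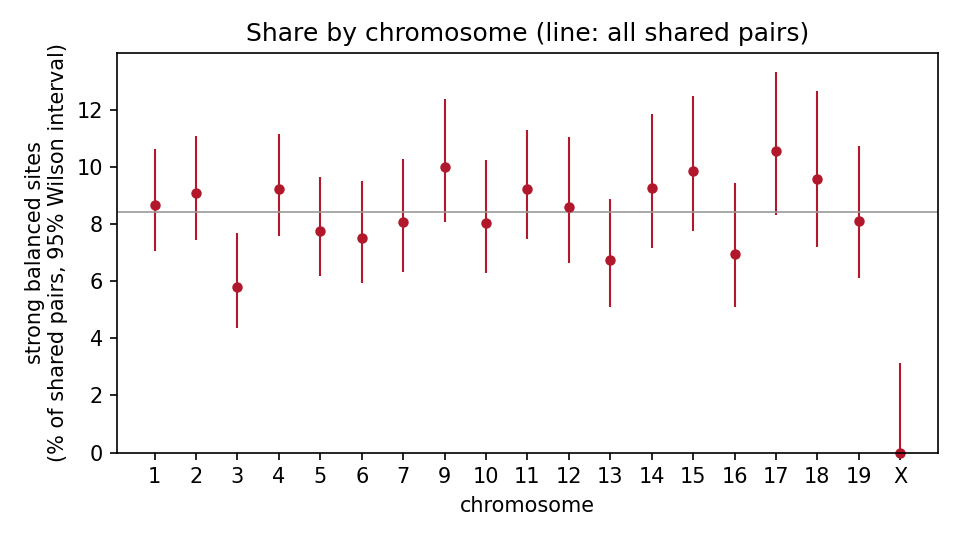
Strong balanced sites as a share of the shared pairs of each chromosome (vertical, percent, from 0), with 95% Wilson intervals; the line marks the share over all shared pairs, 8.41%. Chromosome 3 is lowest among the autosomes at 5.80%, and the X chromosome has 0 of 118.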

How the data were processed

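Bowtie, HOMER and the build mm9 are named in the submitters' processing notes; versions and peak thresholds were not given in the sources used here. Per the labels' protocols, livers were fixed with disuccinimidyl glutarate (2 mM, 30 minutes) and formaldehyde (1%, 10 minutes). The authors deposited 1 peak list per antibody with raw counts per peak: unique positions, all tags and input tags in a window of 153 bp (alpha) or 210 bp (beta), and tags in 10000 bp. Library totals were not found in those sources, so ratios were centred on the median of all shared pairs. The deposited peak score was used only to describe peaks. The deposited false discovery rate, a fraction, is 0 in every row and was not used.

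Peaks were paired at an overlap of 1 bp, with positions as deposited and both ends counted. Shares have Wilson intervals, ratios exact (Clopper-Pearson) intervals, and medians binomial intervals, all at 95%. Pairing and selection were run on simulated data. The simulated pairs all overlapped and the tag limits alone separated the members, so the overlap and balance limits were not tested. Python 3.11.15, numpy 2.4.6, pandas 2.3.3, scipy 1.17.1 and matplotlib 3.10.9 were used.

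The sites, limits and rules were chosen with earlier results of these data known. Named sites are the 10 tallest, the 3 nearest each side of each tag limit and of the balance limit, the 3 furthest toward either receptor, the 3 highest and 3 lowest in density over their surroundings, and the 5 groups with the most members within 50 kb and, among equals, the most tags; at equal tag counts the taller pair was taken. Sites with the most input and the widest distances were added after their values were seen. Planned analyses of sequence motifs and gene starts were not made, because mm9 sequence and annotation were not used here.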

Additional observations from a re-analysis of the deposited data

Results flagged for a closer look

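The alpha list held 148 peaks with at least 70 tags on chromosome 8, where the beta list as used here had 0 peaks and no pair was formed. This is signal outside the comparison. The 148 peaks had a median of 92.5 alpha tags and at most 240, over a median of 3 input tags, and none was below 6.55-fold over input (tags plus 1 over input tags plus 1). No group had enough libraries to look for an outlying one.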

How the results depend on the processing

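The number of strong balanced sites, 1120, stayed within 1.5 times under 6 of 7 alternatives: 1074 with the ratio of all tags (1073 of them among the 1120), 1071 with 50% of both windows overlapping, 825 with a log2 ratio within 0.5, 1092 with tags at least 8 times input plus 1, and, chosen after seeing the data, 1137 with limits at the top 10% of unique positions (1040 among the 1120) and 1003 without sites of 10 or more input tags. The settings with 1071, 825, 1092 and 1003 sites tighten the rule by construction. All their sites were among the 1120, and nothing is read from that. The number was 498 with limits at the top 5% of tags, also a stricter rule by construction. The median centre distance of 21 bp ranged from 20 to 22 bp, except for 13 bp with alpha windows wholly inside beta windows. That choice was made after seeing the data and removes wide distances by construction. The 50% overlap, which gave 20 bp, also removes wide distances by construction. Median input of 3 tags was 4.50 in the wider beta windows. The share of 39.3% with another such site within 50 kb was 20.1% within 10 kb, 27.7% at the top 5%, where fewer sites can be neighbours, and 39.0% with unique positions, chosen after seeing the data. No paired analysis was possible because there was only 1 library per antibody, and so no library to leave out. At the edges of the rule 1 tag decides membership.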
